A study of Mus musculus with 16 samples.

Results

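Of the 247177 distinct promoter interactions listed in mouse liver over the day, 6623 (2.68%) were strong at every timepoint examined. They are pairs of HindIII fragments with a CHiCAGO score of 15 or more in each of the 4 deposited lists, at zeitgeber time (ZT) 0, 6, 12 and 18. The score is the caller's measure of how far the reads joining 2 fragments exceed those expected at that distance, on a scale close to the logarithm of a p-value, so scores are compared here by difference and not by ratio. The pairs were chosen by these scores in all 4 lists, and the scores that chose them are given as a description. The 3 pairs nearest the minimum inside it, at the promoter of Fam129a, near Tpp2 and at Cdc34/Gzmm, had a lowest score equal to it at 2 decimals. The 3 nearest outside it had a lowest score of 14.99, joining Npl to Rgs8, a fragment of 2010111I01Rik to the bait of 2010111I01Rik/Fancc, and Samd4 to its own gene.

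The assay, Promoter Capture Hi-C (P-CHi-C), ligates neighbouring chromatin ends after HindIII digestion and captures the products that carry a promoter fragment, called a bait. Livers came from male wild-type C57BL/6 mice labelled as 8 weeks old, the age the methods give for the start of 2 weeks under 12 h light and 12 h dark, fed ad libitum, with ZT0 at lights on and ZT12 at lights off. Each timepoint had 3 pools of 2 livers, sequenced in 4 runs, and the pools were merged before interactions were called. A timepoint is therefore 1 list, no score has a replicate error, and no difference between timepoints or between sets of pairs below was tested. In whole liver a contact made in fewer cells and one made less often in each cell cannot be told apart.

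Promoters lie close to distant stretches of the genome when the chromatin fibre folds into loops and domains. In the usual account the ring-shaped cohesin complex extrudes a loop until it meets CTCF, a zinc finger protein that binds an asymmetric motif, and loop bases tend to carry CTCF motifs that point towards each other. Enhancers, which are bound by tissue factors such as HNF4A, FOXA and C/EBP in hepatocytes, reach promoters inside such domains, and some of these contacts stay in place whether or not the gene is being transcribed.

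The sequences that follow show what a convergent pair looks like, for the 4 constant strong pairs with the highest lowest score among those whose 80 bases around each motif lay inside the fragment and outside exons. All are forward-strand mm9, with the CTCF consensus match in capitals. At the left end the match reads on the forward strand and at the right end on the reverse strand, so both point into the loop. The Ggt7 to Myh7b ends are at chr2:155338345-155338424 and chr2:155452914-155452993, and those of Cebpe to Slc7a8 at chr14:55333070-55333149 and chr14:55404915-55404994. The Gm17494 to Bcar3 ends are at chr3:122015140-122015219 and chr3:122171084-122171163, and those of S1pr1 to Slc30a7 at chr3:115364092-115364171 and chr3:115682070-115682149.
Ggt7 end: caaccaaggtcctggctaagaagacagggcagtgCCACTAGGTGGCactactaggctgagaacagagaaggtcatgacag
Myh7b end: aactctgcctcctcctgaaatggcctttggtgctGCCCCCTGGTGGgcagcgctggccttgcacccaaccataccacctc
Cebpe end: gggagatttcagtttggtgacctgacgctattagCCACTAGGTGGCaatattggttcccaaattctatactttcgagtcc
Slc7a8 end: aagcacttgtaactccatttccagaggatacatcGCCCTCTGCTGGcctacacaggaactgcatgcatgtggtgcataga
Gm17494 end: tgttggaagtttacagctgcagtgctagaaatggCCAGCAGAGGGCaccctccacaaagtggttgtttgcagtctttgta
Bcar3 end: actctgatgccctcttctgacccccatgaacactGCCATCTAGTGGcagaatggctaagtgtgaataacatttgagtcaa
S1pr1 end: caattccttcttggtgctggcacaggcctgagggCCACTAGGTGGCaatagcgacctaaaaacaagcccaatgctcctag
Slc30a7 end: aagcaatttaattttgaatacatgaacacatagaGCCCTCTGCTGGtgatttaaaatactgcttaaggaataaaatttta

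A fragment is named here by the genes that start in it, otherwise by the gene it overlaps, and otherwise by the nearest gene start. The Ggt7 to Myh7b pair spanned 112 kb and scored 46.5 (ZT0), 34.6 (ZT6), 37.7 (ZT12) and 39.9 (ZT18). The Cebpe to Slc7a8 pair, 72.9 kb apart, scored 34.5, 66.7, 61.7 and 61.8 in the same order, with ZT0 the lowest. The Gm17494 to Bcar3 pair scored 35.6, 34, 65.2 and 57.7, and S1pr1 to Slc30a7, at 315 kb, scored 33.4, 31.4, 30.3 and 38.2. The lowest scores of the Ggt7, Cebpe and Gm17494 pairs, 34.6, 34.5 and 34, lie near 35, where scores were in excess, as described below. Cebpe, whose start lies in the bait of its pair, encodes a C/EBP family factor of granulocytes. The S1pr1 end is not a bait and is only nearest the start of S1pr1, which encodes a sphingosine-1-phosphate receptor of endothelium.

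Most of what was strong at 1 timepoint was listed at all of them. A score of 15 or more was reached in at least 1 list by 18684 pairs, of which 6623 (35.4%) reached it in 4, 2784 in 3, 3322 in 2 and 5955 in 1. Of the 18684, 18401 (98.5%) were listed at all 4 timepoints at the lists' own minimum of 5, and 283 were absent from some list. Pairs that reached 15 in 3 lists and not in the remaining one mostly fell short by little. Pairs strong in the other 3 lists fell below 15 in 11.4% of cases for ZT0, 8.59% for ZT6, 9.17% for ZT12 and 8.80% for ZT18, with median scores there of 13.5 to 13.7.

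Within the 6623 pairs, cut at the same minimum of 15 in each of the 4 lists, the median scores were close. From ZT0 to ZT18 the median score was 22.4, 23.1, 22.7 and 23. The minimum itself placed the pairs within the highest 7.79% to 7.89% of the scores of each list. The median difference between a pair's highest and lowest score was 6.47, with quartiles of 4.28 and 9.42. That median was 4.35 for the 1939 pairs with a mean score of 15 to 20 and 16.4 for the 427 with a mean of 40 or more. ZT0 gave the highest score in 21.3% of the pairs, ZT6 in 27.1%, ZT12 in 24.7% and ZT18 in 26.9%. Among the other 73612 pairs listed at all 4 timepoints these shares were 22.2%, 26.1%, 25.7% and 26.0%.

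**Figure D1:**
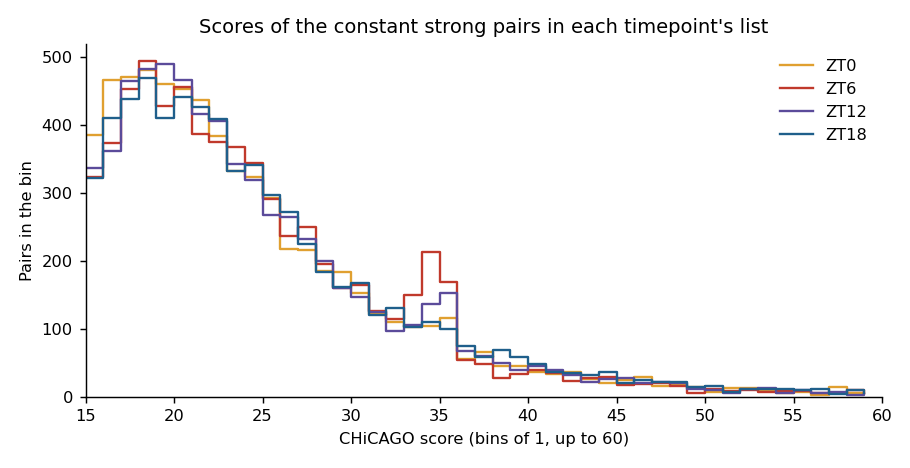
Number of constant strong pairs (vertical axis) in each bin of 1 of the CHiCAGO score (horizontal axis, up to 60), with 1 line per timepoint. The ZT6 line is the highest in the 3 bins from 33 to 36, with 213 pairs in the bin from 34 and 168 in the bin from 35, where ZT12 has 153.

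Scores near 35 were in excess, most clearly at ZT6 and ZT12. Between 34 and 36 the ZT6 list held 381 of the pairs, against 265 from 32 to 34 and 102 from 36 to 38, and the ZT12 list held 290 against 201 and 127. At ZT0 the counts were 220 against 213 and 122, and at ZT18 210 against 234 and 134, so that at ZT18 the count did not exceed that of the scores just below. Of the 41 pairs whose score differed by 40 or more between lists, 29 had a score from 34 to below 36 in at least 1 of them. Among the most varied pairs, Gadd45g to a fragment nearest Gm16767 scored 108, 35.0, 100 and 128 from ZT0 to ZT18, and Rhob to a fragment within Hs1bp3 scored 102, 35.6, 101 and 128. Adamts8 to a fragment near Snx19 scored 119, 103, 34.6 and 99.4. In each of these 3 pairs 1 list gave a value close to 35 and the other 3 gave 99.4 or more. How far the excess near 35 enters these differences was not tested.

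At the other extreme, a fragment in Ppp2r1b and the promoter of Sik2, a kinase of the AMPK family, scored 17.2, 17.4, 17.2 and 17.2. Tm4sf4 and a fragment near Tm4sf1 scored 17.0, 17.0, 16.8 and 16.9. The promoter of Tbc1d14 and a fragment in Cno scored between 24.9 and 25.1, Trim28, a corepressor of retroelements, and Chmp2a/Ube2m between 17.7 and 18.0, and 1700090G07Rik and a fragment near Cript between 15.4 and 15.8. In all, 288 pairs (4.35%) varied by 2 or less, 2197 (33.2%) by 5 or less and 41 by 40 or more.

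The pairs with the highest lowest score came from a few places. The promoter of 9930013L23Rik (chr7:91233839-91236522) was joined to 5 adjoining fragments in the body of Arnt2, a partner of bHLH-PAS factors, 184 to 190 kb away. The strongest of them (chr7:91416828-91421175) scored 129 (ZT0), 131 (ZT6), 161 (ZT12) and 154 (ZT18), the next 112, 116, 150 and 150, and the last of the 5 had 84.0 at ZT0 and 107 at ZT18. All 5 had their lowest score at ZT0. A bait nearest the start of Gcm1 (chr9:77854410-77864727) was joined to fragments nearest Gclc, the catalytic subunit of glutathione synthesis, at 96.1, 96.3, 133 and 99.1 and at 93.3, 87.3, 135 and 118. In both of these the ZT12 score was the highest. The rest of the leading 10 lay between chromosomes and are taken up further on.

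**Figure D2:**
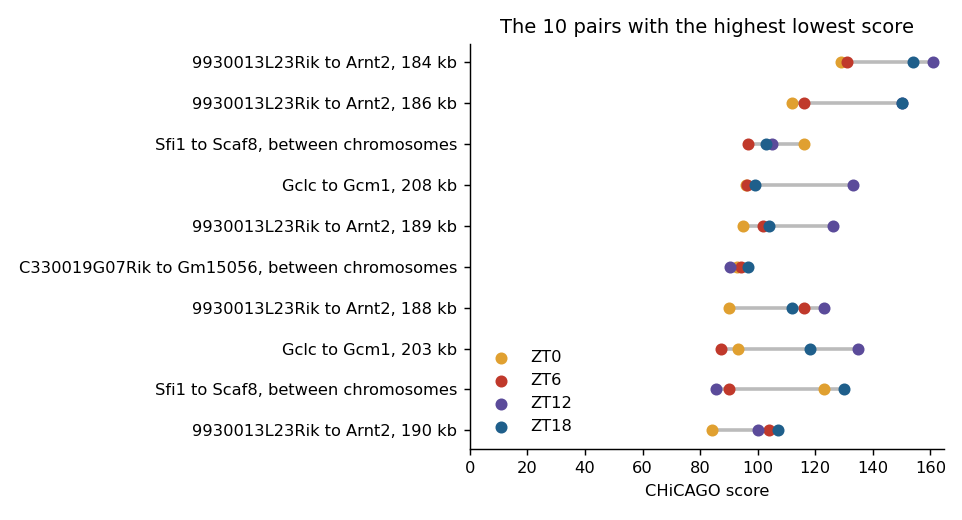
CHiCAGO scores (horizontal axis) at the 4 timepoints (points) for the 10 pairs with the highest lowest score, 1 per line, with the distance between the ends. Every point lies at 84.0 or above, and the grey bars mark each pair's range.

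The strongest Arnt2 fragment is shown by 160 bases around its densest non-exonic group of motif matches (chr7:91418622-91418781, mm9, forward strand), with the match in capitals. It holds 1 AP-1 match (TGANTCA, the site of Fos and Jun dimers), a motif found in 53.5% of the fragments contacted in constant strong pairs and in 52.2% of those contacted in the other pairs listed at all 4. The second sequence is the matching stretch of the Itpr1 fragment most strongly joined to the Bhlhe40 promoter (chr6:108376966-108377125), with a D-box match (TTATGTAA, bound by DBP, TEF, HLF and NFIL3) on the reverse strand and a FOXA match (TGTTTAC) on the forward strand. The D-box letters occurred in 11% of the contacted fragments and the FOXA letters in 31.4%, against 12.3% and 32.2% in the other pairs.
Arnt2 fragment: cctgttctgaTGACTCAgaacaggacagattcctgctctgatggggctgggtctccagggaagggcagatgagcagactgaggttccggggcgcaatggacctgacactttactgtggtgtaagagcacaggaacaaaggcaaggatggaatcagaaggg
Itpr1 fragment: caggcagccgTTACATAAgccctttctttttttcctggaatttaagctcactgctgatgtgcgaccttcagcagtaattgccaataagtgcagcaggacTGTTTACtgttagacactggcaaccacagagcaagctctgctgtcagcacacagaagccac

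The constant strong pairs were spread over 3019 of the 18165 bait fragments with a listed interaction (16.6%), and unevenly. Captured promoters with no listed interaction are not counted here or below. Of these baits 1569 (52.0%) carried a single such pair, 457 carried 5 or more, and the 108 with 10 or more took part in 1723 of the pairs (26.0%). Baits with a constant strong pair had a median of 29.0 listed contacts and those without one 7. The share of baits with at least 1 such pair was 1.34% among baits with 1 to 4 listed contacts, 31.1% among those with 20 to 39 and 83.0% among those with 80 or more. Seen from the baits, 61.9% of the pairs belonged to a run of 2 or more adjoining contacted fragments, so neighbouring pairs often repeat 1 contact region.

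Bhlhe40, a transcriptional repressor of the core clock, and Gadd45g, a stress-response gene, led with 43 pairs each. The Bhlhe40 bait (chr6:108608455-108611448) also holds the start of 0610040F04Rik. It had 149 listed contacts, 80 of them present in every list, and 40 of its 43 constant strong pairs ended in the body of Itpr1, the inositol trisphosphate receptor gene that lies beside it. They included the longest run of all, 22 adjoining fragments over 75 kb (chr6:108357504-108432471) with lowest scores between 15.8 and 81.3. The strongest, at 231 kb, scored 84.4 (ZT0), 81.3 (ZT6), 100 (ZT12) and 93.9 (ZT18).

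The Bhlhe40 pairs leaned to 1 time of day more than those of any other bait with 10 or more constant strong pairs. Their median score was 35.0 (ZT0), 37.1 (ZT6), 50.5 (ZT12) and 42.3 (ZT18). ZT12, the acrophase of Bhlhe40 in the study's list of circadian genes, gave the highest score in 39 of the 43 (90.7%), ZT18 in 3, ZT6 in 1 and ZT0 in 0. Over the 108 baits with 10 or more such pairs the leading timepoint took a median of 50% of the pairs, and 8 baits reached 80% or more. Beyond Bhlhe40 these were led by Rpp14 (90.0%, ZT6), Kcnk16 (90.0%, ZT12) and Clasrp (85.7%, ZT12). The 37 other pairs of the Bhlhe40 bait listed all day, each left out because a score was below 15 in at least 1 list, had median scores of 8.46, 9.12, 11.4 and 10.4, with ZT12 highest in 17, ZT18 in 12, ZT6 in 6 and ZT0 in 2. With the lists in the order of the study's summary the leading timepoint would read ZT6. All of these pairs share 1 bait and the same 4 lists, and 19 of the 43 had a score from 34 to below 36.

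**Figure D3:**
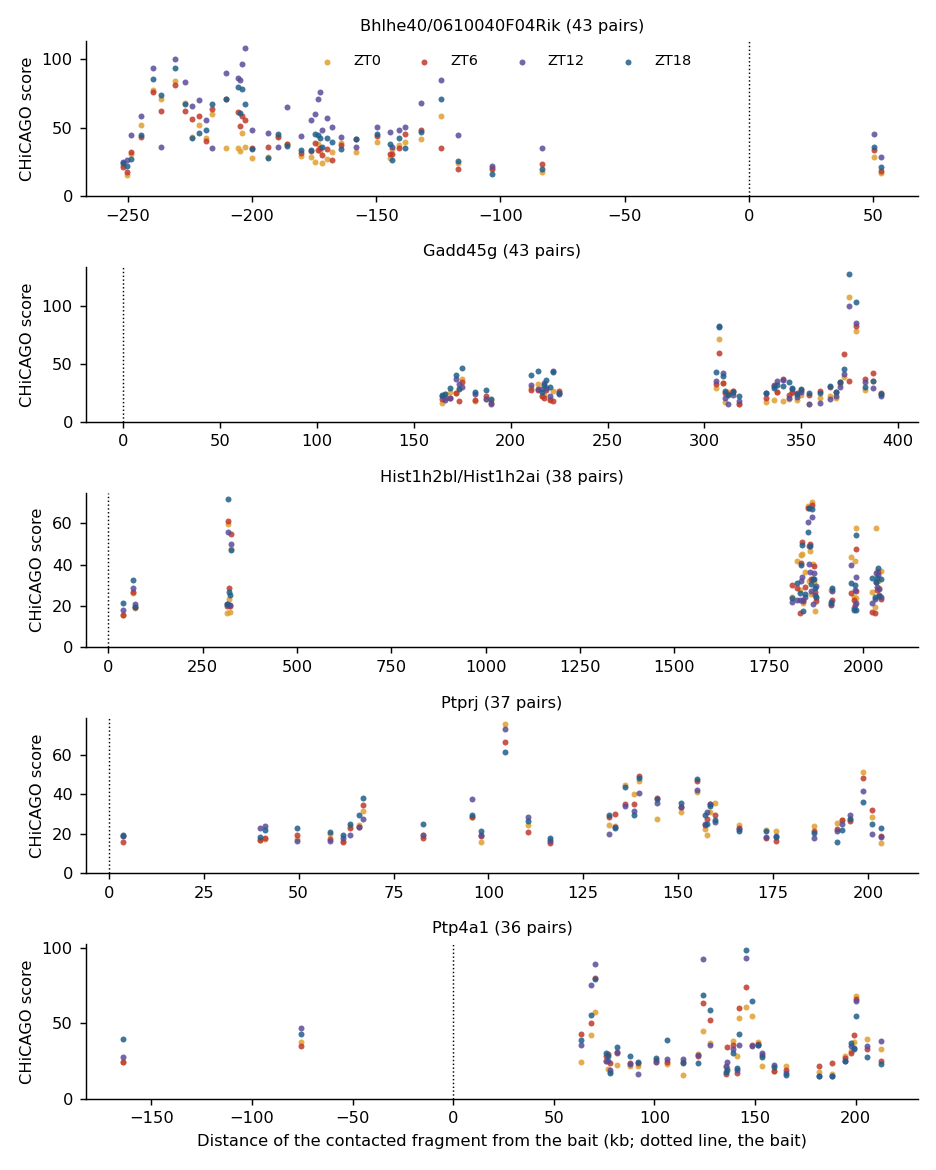
CHiCAGO scores (vertical axis) of the constant strong pairs of the 5 baits with most of them, against the distance of the contacted fragment from the bait (horizontal axis, kb), with 1 colour per timepoint. At Bhlhe40 most ZT12 points lie above the others, and at Gadd45g and Hist1h2bl/Hist1h2ai the contacts gather in separate stretches, while those of Ptprj are spread from 3.84 to 203 kb.

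The Gadd45g bait (chr13:51940542-51943809) showed another arrangement. All 43 of its constant strong pairs lay on 1 side of it, 164 to 391 kb away and nearest the start of Gm16767. Their median scores were 24.8, 25.8, 28.3 and 29.4, and ZT18 was highest in 24 of them. Ptprj, a receptor tyrosine phosphatase, had 37 pairs within 203 kb over its own gene and towards Nup160, with medians from 23.4 at ZT12 to 24.8 at ZT18. Ptp4a1, a small tyrosine phosphatase, had 36, of which 18 ended nearest Gm5699 and 10 nearest Lgsn. Its pair with the highest lowest score, 146 kb away, scored 60.9, 74.1, 93.1 and 98.2. Hist1h2bl/Hist1h2ai had 38 pairs, 21 of them with other baits.

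Histone genes formed the largest network of promoters. Of the 6623 pairs 1556 joined 2 baits, and these linked 2105 promoter fragments into 711 groups, 437 of them a single couple. The largest group held 27 fragments and 89 pairs on chromosome 13, between 21807357 and 23857922, nearly all at replication-dependent Hist1 genes, which supply histones for new chromatin. Its pairs spanned a median of 1494 kb, with medians by list of 31.2, 27.8, 26.7 and 31.5 from ZT0 to ZT18. Hist1h2ae to Hist1h4i/Hist1h2ag, 1527 kb apart, scored 64.8, 86.5, 75.9 and 79.1. Of the 58 placed genes with Hist symbols 41 (70.7%, 95% Wilson interval 58.0 to 80.8) had a constant strong pair, on 25 of 36 bait fragments, against 17.7% of all protein-coding genes with a bait. Their median number of listed contacts was 37, against 10. These genes resemble each other in sequence. A match of at least 200 bases at 95% identity or more between the ends was found in 14 of 127 pairs with Hist1 names at both ends, against 16 of all 6623, and its part in the scores was not tested.

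The next group held 26 fragments and 36 pairs over 535 kb of chromosome 7, at the hepatocyte protease gene Hpn, the lipoprotein receptor gene Lsr, Usf2, the fatty acid receptor genes Ffar1, Ffar2 and Ffar3, and the skin genes Dmkn, Sbsn and Krtdap. Their median scores ran from 22.3 at ZT6 to 27.5 at ZT12. The one after it held 15 fragments and 16 pairs over 364 kb of chromosome 19, including Ahnak, Eef1g, Snhg1, Polr2g and Mta2, with medians between 18.4 at ZT0 and 22.3 at ZT12.

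In distance the constant strong pairs resembled other pairs listed all day more than those listed once. The 6600 pairs within a chromosome spanned a median of 135 kb (interval 131 to 139), against 122 kb (121 to 123) for the other pairs listed at all 4 timepoints and 205 kb (204 to 207) for the 87003 pairs listed at 1. Intervals here and below are 95% intervals for counting error and treat pairs as independent, which pairs of 1 bait are not. Under 50 kb lay 13.7% of the constant strong pairs and 18.9% of the other pairs, and over 500 kb lay 4.70% and 3.75%. The longest within a chromosome joined Sfi1 to a fragment near Slc36a3 over 51919 kb, with scores of 35.7, 34.1, 34.3 and 39.3. The same Sfi1 bait had 5 of the pairs between chromosomes described below, and the part of misplaced sequence was not tested. Fstl5 and Gm10291 were 2842 kb apart and scored 22.6, 22.6, 25.5 and 21.8. The 3 that followed, of 2039 to 2046 kb, joined Hist1h2bl/Hist1h2ai to Hist1h4a/Hist1h3a/Hist1h1a, to a fragment nearest 4930558J22Rik and to Hist1h4b.

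Over all distances together, promoters met other promoters more often than in the other sets. Both ends were baits in 23.5% of the constant strong pairs (22.5 to 24.5), 17.0% of the other pairs listed at all 4 (16.7 to 17.3) and 13.8% of those listed once (13.6 to 14). Only pairs with both ends baits could be listed in both orders, and the higher score was then kept. The part of this in these shares was not tested. The share differed most under 50 kb, where it was 47.4% against 20.1% for the other pairs at all 4, from 50 to 150 kb 25% against 16.4%, and from 150 to 500 kb 14% against 15.9%, and over 500 kb 22.6% (18.3 to 27.6) against 18.2% (16.8 to 19.7). Among pairs listed once the shares in the same bands were 11.9%, 10.7%, 13.4% and 23.6%, so beyond 150 kb they were close to those of the constant strong pairs. Another bait lay between the ends in most pairs, and 28.9% had none (29.3% in the other pairs). The far end overlapped the gene that starts in the bait in 11.1% of the 5828 pairs where such a gene was known, against 12.9%. By distance that share was 21.6% (18.9 to 24.4) against 29.5% (28.7 to 30.3) under 50 kb, 11.7% against 12.6% from 50 to 150 kb, 7.24% (6.23 to 8.40) against 5.37% (5.09 to 5.67) from 150 to 500 kb and 4.25% against 2.05% beyond.

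The 4505 distinct non-bait fragments contacted in the constant strong pairs lay outside genes more often than those counted for the other sets. Here and for the motifs below, each fragment was counted in the first set that held it, in the order constant strong, other at all 4, listed once. A fragment of a later set may also lie in pairs of no set. They overlapped no annotated gene in 44.6% of cases (43.1 to 46.0), against 37.1% (36.6 to 37.5) of the 41221 counted for the other pairs at all 4. For the 41570 counted for pairs listed once it was 39.8%. An exon was overlapped by 30.2% of the constant strong set, against 33.1% and 29.5%, and intron alone by 25.3%, against 29.8% and 30.7%. Their median length was 2250 bp against 2311 and 2188 bp, and their median GC content 45.3% against 44.6% and 43.5%. Most of the 4505, 89.4%, were joined to a single bait. The fragment joined to the most, 7, lay nearest Hist1h2bk, and another nearest Hpn was joined to 5, among them Lsr, Usf2 and Fxyd3.

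Of the 11 motifs searched, that of CTCF differed most in share between these fragments and the other sets. The CTCF consensus was found on either strand in 8.01% of them (7.26 to 8.84), in 4.19% (4.01 to 4.39) of the fragments of the other pairs at all 4 and in 2.51% (2.37 to 2.67) of those of pairs listed once. Per 10 kb there were 0.269, 0.137 and 0.0845 matches. Over all pairs listed at every timepoint the share was larger at a higher lowest score, from 4.15% at 5 to below 7 to 7.29% at 15 to below 20 and 10.4% (8.13 to 13.2) at 30 or more. With fragments split by GC content at 42.2% and 46.2%, it was 4.77% against 2.06% in the lowest class, 6.76% against 3.59% in the middle and 10.8% against 6.46% in the highest. Split by length at 1427 and 3424 bp it was 2.30% against 1.12%, 7.01% against 2.89% and 14.7% against 8.36%. The constant strong set was thus the higher in each class.

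The other motifs differed less. The letters of the E-box (CACGTG), where the clock activators and repressors bind, occurred in 32.3% of the contacted fragments against 30.7% and 27.6% in the other 2 sets. Those of the NR5A2 site (TCAAGGNCA) occurred in 29.4% against 28.8% and 26.5%, of HNF4A (CAAAGTCCA) in 5.04% against 4.75% and 4.51%, and of AP-2 (GCCNNNGGC) in 39.0% against 38.9% and 34.6%. HNF1 (GTTAATNAT) occurred in 7.01% against 8.02% and 8.59%, and the RORE consensus in 5.19% against 5.31% and 5.27%. The C/EBP palindrome (TTGCGCAA) was found in 10 of the 4505 (0.222%), against 0.337% and 0.322%. Both strands were searched for each motif, and a match is a run of letters, not a bound site.

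CTCF motifs of a single strand at each end were found in 62 of the 6600 pairs within a chromosome (0.939%), against 358 (0.486%) of the other pairs at all 4 and 243 (0.280%) of those listed once. Of the 62 pairs 35 were convergent (56.5%, 44.1 to 68.1), 24 tandem and 3 divergent. With 1 pair for each run of adjoining fragments the convergent share was 50% (34.5 to 65.5). In the other sets the convergent share was 45.8% (40.7 to 51.0) and 32.9% (27.3 to 39.1), and the divergent share 8.94% and 14%, against 4.84% here. By distance, 2 of 12 constant strong pairs under 50 kb were convergent, 14 of 26 from 50 to 150 kb, 15 of 20 from 150 to 500 kb and 4 of 4 beyond, while in the other pairs at all 4 the share was 45.5% to 50% in each of these bands. The intervals of the constant strong pairs and of the other pairs at all 4 overlap, and 62 pairs are few. The convergent pair with the highest lowest score joined a bait near Cdrt4 to the body of Pmp22, the peripheral myelin gene, at 64.9, 64.7, 61.1 and 63.1. The promoter of Bcl6, a repressor with targets in liver lipid metabolism, met A230028O05Rik over 1079 kb at 40.6, 39.5, 34.6 and 45.0.

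**Figure D4:**
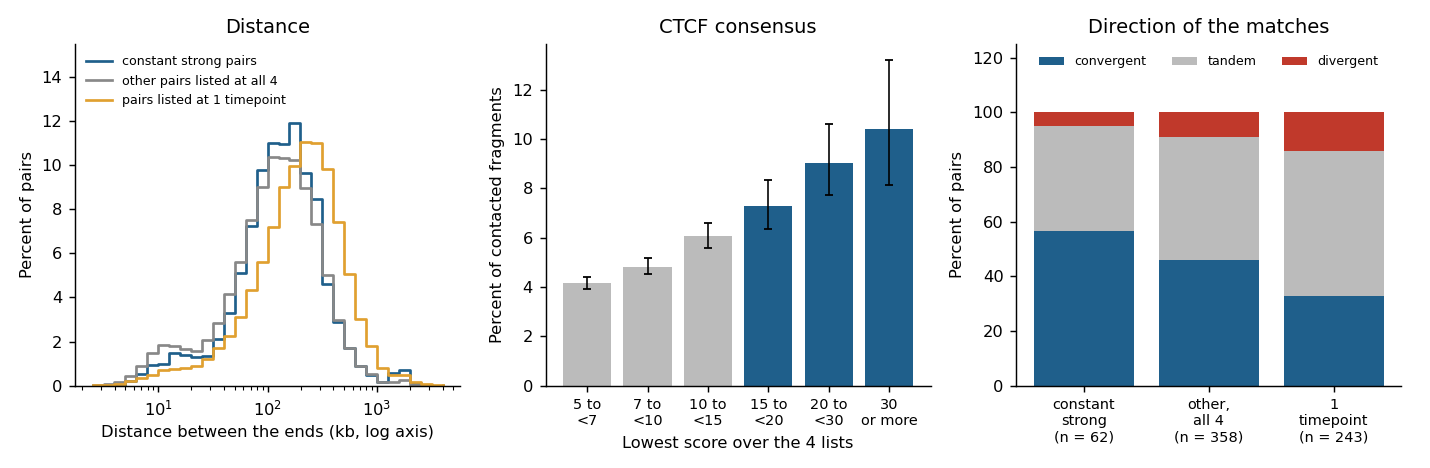
Left, percent of pairs within a chromosome by distance between the ends (kb, log axis, without the pair of 51919 kb) for the constant strong pairs, the other pairs listed at all 4 timepoints and those listed at 1. Middle, percent of contacted fragments with the CTCF consensus by the lowest score of the pair (bars, 95% Wilson intervals; blue, constant strong pairs), rising from 4.15% to 10.4%. Right, direction of CTCF matches in pairs with a single strand at each end, with the convergent share falling from 56.5% to 32.9% across the 3 sets.

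Gene by gene, 16859 protein-coding genes had a bait with a listed interaction at their start. Of these 17.7% (2977 genes) had a constant strong pair, the background for the lists that follow. Genes of plasma proteins and apolipoproteins, the main secreted products of hepatocytes, stood well above it at 16 of 25 (64.0%, 44.5 to 79.8). They also had a median of 32 listed contacts against 10 over all protein-coding genes, and 5.66% of their contacts were constant strong pairs against 2.90%. Apoa4 had 13, the strongest ending near Pafah1b2 246 kb away at 39.5, 42.6, 36.4 and 40.6. Apob, the structural protein of VLDL, had 9, the strongest 67.2 kb away at 36.6, 37.2, 44.0 and 41.3. Afp had 5, and its strongest, near Gm9958, scored 37.6, 32.8, 31.1 and 31.9. Alb, which encodes albumin, had 1, also ending near Gm9958, at 15.6, 22.7, 18.4 and 16.5. Several of these genes share a bait or a cluster, so 16 genes correspond to 14 bait fragments.

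**Figure D5:**
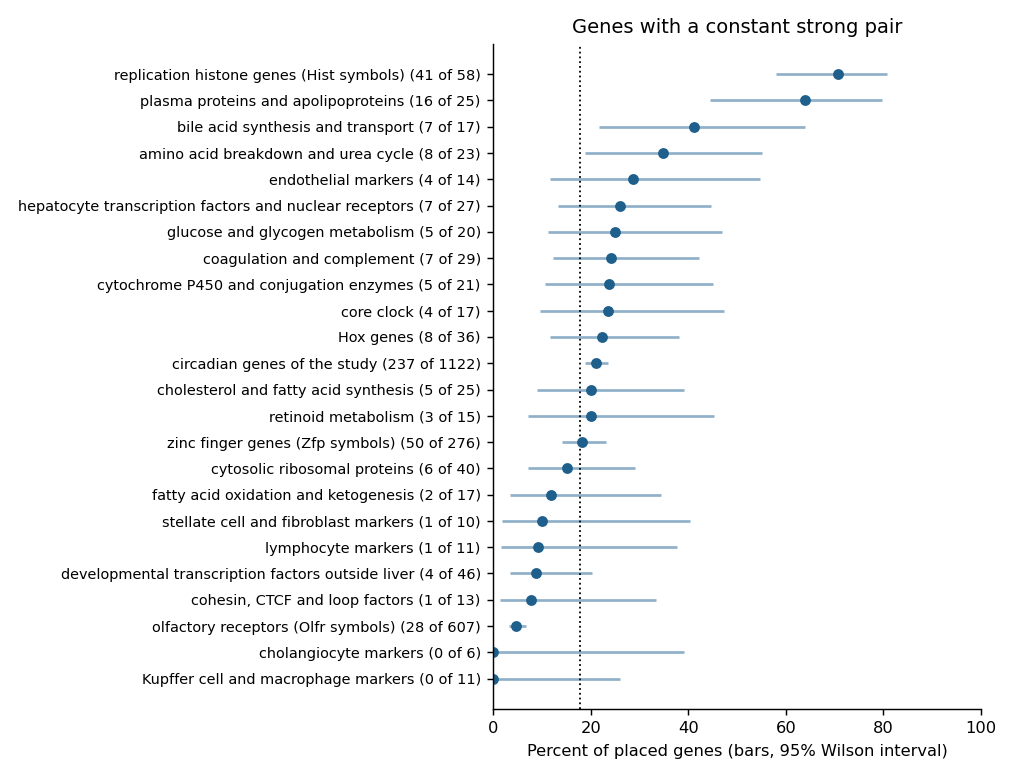
Percent of genes with a bait at their start that had at least 1 constant strong pair (horizontal axis), by gene list, with 95% Wilson intervals and counts in the labels. The dotted line marks all protein-coding genes at 17.7%, and the histone genes and plasma proteins lie farthest above it.

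Other metabolic lists of the liver lay closer to the background. Bile acid genes had 7 of 17 (41.2%, 21.6 to 64.0), led by Abcb11, the bile salt export pump, with 4 pairs and a strongest of 36.1, 25.9, 25 and 43.5 to the body of Lrp2. Cyp7a1, the rate-limiting enzyme of bile acid synthesis, had 1 at 36.1 kb, with 22.3, 16.7, 25.1 and 24.6. Amino acid and urea cycle genes had 8 of 23 (34.8%, 18.8 to 55.1), among them Glul, Fah and Cps1 with 5, 4 and 3. The strongest of Cps1, the entry enzyme of the urea cycle, scored 31.5, 26.5, 34.1 and 30.3. The bile acid and amino acid lists had medians of 16 and 19 listed contacts, against 10 over all protein-coding genes. Constant strong pairs made up 3.13% and 3.19% of their contacts, close to the 2.90% over all protein-coding genes. The intervals of the remaining metabolic lists include 17.7%. Coagulation and complement genes had 7 of 29, where the fibrinogen genes Fgb and Fgg met each other over 43.1 kb at 34.3, 29.9, 36.5 and 40.8. Cholesterol and fatty acid synthesis had 5 of 25, of which Elovl5, a fatty acid elongase, had 21 pairs. The Elovl5 bait and the bait near Gcm1 were joined to each other and shared 10 contacted fragments, including the strongest of Elovl5 near Gclc at 34.9, 32.6, 30.7 and 32. Glucose and glycogen metabolism had 5 of 20, led by Ppp1r3c, a glycogen-targeting subunit of protein phosphatase 1, with 10, and fatty acid oxidation and ketogenesis 2 of 17, where Fgf21 had 4 and Acadm 1. Cytochrome P450 and conjugation enzymes had 5 of 21, with Ugt1a1, the bilirubin conjugating enzyme, at 11. The Ugt1a1 bait had 4 pairs between chromosomes, taken up further on. Retinoid metabolism had 3 of 15, with Dhrs3, a retinaldehyde reductase, at 32.

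Regulators of the hepatocyte had 7 of 27 (25.9%, 13.2 to 44.7). Nr1i3, the gene of the xenobiotic receptor CAR, had 13 pairs, Onecut1 9 and Thrb, the thyroid hormone receptor beta gene, 5. The strongest of Onecut1, which encodes HNF6, lay 332 kb away and scored 36.7, 60.2, 35.1 and 30.4, and that of Thrb lay 240 kb into its own gene at 28, 25, 34.2 and 26.8. Developmental transcription factors used outside the liver had 4 of 46 (8.70%, 3.43 to 20.3), with 0.815% of their contacts among the constant strong pairs. Tbx3 and Emx2 had 2 each, spanning up to 791 kb for Tbx3 at 30.8, 32.9, 30.9 and 31.1. Hox genes had 8 of 36, in the c, d, b and a clusters, with 16 at Hoxc5, whose strongest scored 47.3, 40.9, 37.4 and 42.5, and 6 each at Hoxc8 and Hoxd4. Ribosomal protein genes had 6 of 40, with Rps14 at 3, cohesin and CTCF genes 1 of 13 (Pds5b), zinc finger genes 50 of 276 and olfactory receptors, which act mainly in the nose, 28 of 607 (4.61%, 3.21 to 6.59). Olfactory receptors had a median of 4.00 listed contacts.

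For markers of other liver cell types every interval included the background of 17.7%. Kupffer cell and macrophage markers had 0 of 11 and cholangiocyte markers 0 of 6, with upper bounds of 25.9% and 39.0%, and the Kupffer list had a median of 5 listed contacts. Stellate cell markers had 1 of 10 (Vim) and lymphocyte markers 1 of 11 (Cd4). Endothelial markers had 4 of 14. Dnase1l3 had 8, the strongest at 35.1, 41.7, 36.6 and 35.2, Tie1 had 4 and a strongest of 75.8, 35.6, 65.1 and 55.6 to the promoter of Elovl1, Stab2 had 2 and Clec4g had 1.

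Of the core clock genes 4 of 17 with a bait at their start had a constant strong pair (23.5%, 9.56 to 47.3). After Bhlhe40, Nfil3 had 6, Hlf 2 and Tef 1, and these 3 encode bZIP factors that act on D-boxes. The strongest of Nfil3, 268 kb away near Sykb, scored 28.1, 45, 37.3 and 31.6. That of Hlf, 71.5 kb away, scored 32.1, 48.1, 39.7 and 34.1, and that of Tef, in its own gene, 28.2, 35.3, 29.1 and 26.0. In each of these 3 the list labelled ZT6 was highest, which the study's summary would place at ZT18. The study's list of circadian genes gives an acrophase of ZT0 for Nfil3 and ZT12 for Tef. Dbp had none among 37 listed contacts, 6 of them present in every list. Per1 and Per2 had 22 and 20 contacts, Bhlhe41 19, Npas2 and Nr1d1 15 each, Cry2 14 and Per3 8, and none of these was a constant strong pair. Arntl, Cry1 and Nr1d2 had 3 contacts each and Clock 1. The listed genes thus differ in contacts as well as in constant strong pairs, and baits with 1 to 4 contacts had one in 1.34% of cases.

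Circadian genes of the study had a constant strong pair in 237 of 1122 cases (21.1%, 18.8 to 23.6), with a median of 13 listed contacts against 10 over all protein-coding genes. By acrophase, the time of peak expression, the share was 24.2% for ZT0, 17.7% for ZT6, 22.3% for ZT12 and 20.4% for ZT18. Among ZT0 genes Dhrs3 had 32, Dapk1 17 and Hist1h2bc 13. Among ZT6 genes Lpin3, a lipin phosphatase, had 21, D18Ertd653e 17 and 4930581F22Rik 13. For ZT12 Bhlhe40, Ptp4a1 and Gtf2ird2 led with 43, 36 and 12, and among ZT18 genes Eef1g, Creld2 and Hes6 with 15, 9 and 8. The score was highest at the acrophase in 28.5% of 736 pair ends at circadian promoters (25.4 to 31.9), where the shares of all constant strong pairs give 24.6%. Without the Bhlhe40 bait it was 24.7% of 693 (21.6 to 28). At Dhrs3 the highest score fell at ZT0, its acrophase, in 11 of 32 pairs, and the medians were 22.2, 20.5, 20.3 and 20.3. At D18Ertd653e it fell at ZT6, its acrophase, in 14 of 17, with medians of 25.3, 32.3, 23.1 and 22.3. In the order of the study's summary that list would be ZT18 and not the acrophase. At Creld2, with acrophase ZT18, it fell at ZT12 in 6 of 9. The other named circadian genes had their highest score at the acrophase less often. For ZT0 this was 5 of 17 pairs at Dapk1 and 4 of 13 at Hist1h2bc. For ZT6 it was 1 of 21 at Lpin3 and 2 of 13 at 4930581F22Rik. Ptp4a1 and Gtf2ird2 had 9 of 36 and 2 of 12 at ZT12, and Eef1g and Hes6 3 of 15 and 0 of 8 at ZT18.

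Pairs between chromosomes were few, 23 of 6623, and gathered at a handful of baits. Both Sfi1 baits, near the start of chromosome 11 in mm9, had 9 of them, and the neighbouring baits of Ugt1a1 and Hjurp/Trpm8 on chromosome 1 had 4 each. The Sfi1 bait at chr11:3039562-3056799 and the fragment chr17:3084136-3087182 near Scaf8 scored 116, 96.7, 105 and 103, and the same bait with another fragment there 123, 90.2, 85.4 and 130. The other Sfi1 bait and the first of these fragments scored 71.1, 77.3, 66.2 and 83.6. A fragment in C330019G07Rik on chromosome 5 and the promoter of Gm15056 on chromosome 8 scored 92.7, 94.3, 90.5 and 96.5, the least varied of the leading 10. Hjurp/Trpm8 and a fragment in Pcdh15 scored 53.0, 87.6, 88.8 and 98.3. No pair between chromosomes had a sequence match of at least 200 bases at 95% identity between its ends (0 of 23, upper bound 14.3%). Only the ends of a pair were compared with each other, and the part of repeated or misplaced sequence in these scores was not tested.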

How the data were processed

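P-CHi-C of mouse liver was analysed from 4 lists of fragment pairs, 1 per timepoint. The authors mapped reads with HiCUP to mm9, pooled the reads of each timepoint before CHiCAGO called interactions, and the deposited values are CHiCAGO scores of at least 5. A score depends on the background fitted for each list, and read depth was not analysed here. Lists were assigned to timepoints by the labels. A summary given with the study orders the ZT6, ZT12 and ZT18 totals differently, which does not alter which pairs were chosen. Columns that no label maps to these samples numbered 0. The pairs and the gene lists were chosen with earlier results of these data known.

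Pairs were taken as unordered, and where a list gave a pair in both orders the higher score was kept. Fragments were annotated with GENCODE gene records for mm9 (protein-coding and lincRNA starts) and the mm9 genome, and distances run between fragment midpoints. Fragments given as bait in any list were taken as baits, so captured promoters with no listed interaction were left out. Consensus motifs were searched with exact letters on both strands with pysam 0.24.0. Shares have 95% Wilson intervals (scipy 1.17.1), medians have order-statistic intervals, and groups of promoters came from networkx 3.6.1. Ends were compared with blastn 2.17.0. The rules were tested on simulated lists. The 1256 circadian genes, with their acrophases, are those the study lists, and 1220 had a gene record used here.

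The text names the 10 pairs with the highest lowest score, the 5 baits with most pairs, the 5 longest, the 5 least and 5 most varied, the leading 5 between chromosomes, core clock genes, the leading genes of each list and acrophase and the 3 largest promoter groups. The other convergent pairs, further genes and the Itpr1 fragment were named after their values were seen. A few of the items this rule names are not reported here. Alternatives are described at the end.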

Additional observations from a re-analysis of the deposited data

How the results depend on the processing

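No paired analysis was possible because each timepoint has a single list made from merged pools, and no result has a test. Of 118 values recomputed under alternatives, 47 of the main results and 38 of the others stayed within the reported value's counting interval (for the number of pairs, within 1.5 times), and 22 and 11 did not.

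A minimum of 12 gave 11876 pairs and a minimum of 20 gave 2985, and 1 pair for each run of adjoining fragments left 3997. The share with both ends baits was 22.4% at a minimum of 12 and 38.5% with 1 pair per run. The median distance was 129 kb at 12, 144 kb at 20, 118 kb with 1 pair per run and 130 kb as the gap between nearest ends. The share of baits with a pair was 24.9% at 12 and 8.92% at 20. The median range of scores was 5.64 at 12, 7.60 at 20 and 6.21 with 1 pair per run. The CTCF share of contacted fragments was 6.86% at 12, 9.31% at 20, 9.52% with 1 pair per run and 12.5% with a looser consensus, under which the other pairs at all 4 had 9.48% and those listed once 6.88%, a smaller contrast. The convergent share was 51.5% at 12 and 50% with 1 pair per run, within its counting interval. Leaving out each list in turn gave 7245 to 7477 pairs and 17.7% to 18.1% of baits. Requiring the same number of top-ranked pairs per list kept 6376 of the 6623.

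With the lists in the order of the study's summary, the share of circadian pairs highest at the acrophase was 24.9%. The shares of all constant strong pairs also give 24.9% in that order. ZT6 and ZT12 then gave the highest score in 24.7% and 26.9% of all the pairs. With the labelled order and intron-level circadian genes the acrophase share was 40.1% (93 of 232 pairs), where the shares of all constant strong pairs give 23.7%. Without Bhlhe40 it was 28.6% of 189 (22.6 to 35.4). By rank within a list, ZT0 was highest in 22.5% and ZT18 in 24.6% of the pairs. Where a value shifted with the minimum or the run rule, the set of pairs itself had changed, and other causes were not tested. The acrophase share without Bhlhe40 and the CTCF share by score, GC content and length were added after seeing the data.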
